A study of Mus musculus with 4 samples.

Results

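Ion transport genes of the lung epithelium were followed in whole lungs of mouse embryos at embryonic day 16.5. The members were chosen by gene symbol from the deposited expression table, and all 10 symbols (Cftr, Ano1, Clca1, Slc26a4, Slc12a2, Atp1b1, Scnn1a, Scnn1b, Scnn1g and Foxi1) were found among its 22556 genes. Of these, 8 reached a mean of 0.5 FPKM over the libraries and could be tested. FPKM values are reads scaled to transcript length and to sequencing depth, so levels of different genes can be set side by side. The labels gave 2 libraries for each of 2 genotypes, all from C57BL/6 embryos. In the methods of the study, the mice are of mixed backgrounds. Control embryos were Shh-Cre with Stk11F/+ alleles, and Shh-Stk11 embryos were Shh-Cre with Stk11F/F alleles, so both genotypes carried the driver and at least 1 floxed allele. Stk11 encodes a serine/threonine kinase. The Shh-Cre driver acts in the endoderm that gives rise to the epithelium, so deletion was directed to that lineage, while the RNA came from all cells of the lung.

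Before birth the lung is filled with liquid that its own epithelium secretes. Chloride enters the cells from the blood side through the cotransporter NKCC1, driven by the sodium gradient that the Na,K-ATPase maintains, and leaves into the lumen through chloride channels. Around birth the epithelial sodium channel ENaC, built of alpha, beta and gamma subunits, takes up sodium and the liquid follows. Ionocytes are rare airway cells rich in CFTR, and their identity depends on the transcription factor FOXI1.

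No member passed the threshold of an adjusted p of 0.05 in limma, and the tested members differed in direction. All 3 ENaC subunit genes had lower mean levels in Shh-Stk11 lungs, by 20.7% to 34.6%. The 5 other tested members (Cftr, Ano1, Clca1, Slc12a2 and Atp1b1) had higher mean levels, by a factor of 1.29 to 1.51. Of the 8 members, 5 had an unadjusted p under 0.05, against a background of 15.2% of all 13770 genes tested. Over the 16 alternatives this count ranged from 2 to 6, and it was 2 without Shh-Stk11 1 and 3 without Control 1, with no filter on low values, with no variance trend, and after removing the trend on length and GC content, alone or along with a replicate block. The genotypes did not overlap for 7 of the 8, against a background of 46.8% of genes. Of these 7, 5 were higher (background 19.2%) and 2 lower (background 27.6%) in Shh-Stk11 lungs. The adjusted threshold was passed by 2.27% of all genes. The median log2 fold change was 0.41 over the 8 members and -0.05 over all genes tested. In whole lungs, fewer cells of a type and less RNA per cell cannot be told apart.

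The floxed gene was checked before the members. Stk11 read 44.0 and 45.5 FPKM in Control lungs, against 29.5 and 25.95 FPKM in Shh-Stk11 lungs, with no overlap. The log2 fold change was -0.69 (SE 0.125), with a limma adjusted p of 0.0499. The adjusted p was above 0.05 in 13 of 16 alternatives, including each fit with 1 library left out (0.113 to 0.183), while the log2 fold change stayed between -0.78 and -0.56. Depth estimated from the spacing of low values was 31.0 to 38.2 M reads per library. Shh-Stk11 2 was the only library with the Y-linked gene Ddx3y at more than 0.0285 FPKM (23.5 FPKM), so sex was not matched between the genotypes, and fits without this library compare libraries with Ddx3y near 0. A difference of 2 against 2 libraries cannot reach an exact permutation p below 0.333, and every p here rests on variance borrowed across genes by limma.

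Sequence in front of the start sites is shown for Scnn1g, Scnn1b, Ano1 and Cftr, which had the largest fitted log2 fold changes in size. It is also shown for Slc26a4, whose level was close to 0. Cftr (0.555) was ahead of Clca1 (0.553) by little, and with a pseudocount of 0.01 Clca1 was ahead (0.565 against 0.563). RefSeq (GRCm38.p6) held a promoter for 8 of the 10 members, not for Scnn1a and Slc12a2. Each line gives the 250 bases before the annotated start, 5′ to 3′ on the strand of the gene, with motif matches in capitals. Cftr lay at chr6:18170437-18170686 on the plus strand, Ano1 at chr7:144738574-144738823 on the minus strand, Scnn1b at chr7:121864788-121865037 and Scnn1g at chr7:121734229-121734478, both on the plus strand, and Slc26a4 at chr12:31559985-31560234 on the minus strand.
Cftr: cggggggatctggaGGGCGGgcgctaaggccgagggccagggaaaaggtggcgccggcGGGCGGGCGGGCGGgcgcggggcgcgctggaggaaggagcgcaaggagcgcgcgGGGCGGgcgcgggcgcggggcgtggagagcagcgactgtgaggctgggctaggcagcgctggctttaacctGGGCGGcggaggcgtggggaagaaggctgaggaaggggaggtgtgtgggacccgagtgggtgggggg
Ano1: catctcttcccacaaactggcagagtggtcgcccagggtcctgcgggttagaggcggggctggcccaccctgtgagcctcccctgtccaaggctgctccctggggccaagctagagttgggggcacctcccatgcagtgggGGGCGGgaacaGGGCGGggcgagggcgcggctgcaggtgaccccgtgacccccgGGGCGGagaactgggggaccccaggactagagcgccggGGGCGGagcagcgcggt
Scnn1b: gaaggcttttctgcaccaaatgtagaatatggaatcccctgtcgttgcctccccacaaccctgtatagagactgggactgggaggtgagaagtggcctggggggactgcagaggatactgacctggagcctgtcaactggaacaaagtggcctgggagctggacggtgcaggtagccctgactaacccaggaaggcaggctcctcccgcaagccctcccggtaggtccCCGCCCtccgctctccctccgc
Scnn1g: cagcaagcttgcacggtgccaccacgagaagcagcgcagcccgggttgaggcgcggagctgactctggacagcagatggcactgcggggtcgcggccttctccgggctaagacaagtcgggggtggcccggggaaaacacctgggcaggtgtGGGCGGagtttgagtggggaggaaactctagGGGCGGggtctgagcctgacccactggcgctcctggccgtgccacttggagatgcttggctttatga
Slc26a4: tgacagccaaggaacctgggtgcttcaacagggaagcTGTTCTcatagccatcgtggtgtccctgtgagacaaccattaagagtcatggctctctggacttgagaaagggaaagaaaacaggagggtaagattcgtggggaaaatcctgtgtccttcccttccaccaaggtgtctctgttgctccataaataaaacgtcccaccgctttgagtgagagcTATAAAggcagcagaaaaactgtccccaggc

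The search covered both strands for the TATA box (TATAAA), the core of the cAMP response element (TGACG), a forkhead motif (TGTTTAC), the glucocorticoid receptor core (AGAACA) and the GC box (GGGCGG). The GC box was found 6 times in front of Cftr, 4 times in front of Ano1, 2 times in front of Scnn1g and 1 time in front of Scnn1b, with overlapping matches counted separately. It was present in 32.7% of the 32851 promoters in the table. None of the other motifs occurred in these 4 windows. The cAMP response element core (17.8% of all promoters) and the forkhead motif (3.17%) were in none of the 8 windows. Foxi1 and the Clca1 row had 1 GC box each and Atp1b1 had 2. The Slc26a4 window held no GC box, but it held a TATA box 31 bases before the start (12.4% of all promoters hold one) and a glucocorticoid receptor core (16.1%). GC content over the 8 windows was 76.4% for Cftr, 72.0% for Ano1, 70.4% for Atp1b1, 65.2% for Scnn1g, 60.8% for Scnn1b, 58.8% for Foxi1, 49.6% for Slc26a4 and 48.8% for the Clca1 row, with a median of 52.4% over all promoters. These matches describe the letters only, and binding was not measured.

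In levels, Atp1b1 was the highest member, with a mean of 254 FPKM over the 4 libraries. Slc12a2 (101 FPKM), Ano1 (54.1 FPKM), Scnn1a (25.4 FPKM), Scnn1g (14.2 FPKM) and Cftr (6.19 FPKM) followed, and in each step of this order all 4 libraries of the higher gene lay above all 4 of the lower one. Cftr and Scnn1b (6.13 FPKM) could not be ordered, since each was higher in 2 of 4 libraries. The ranges of Scnn1b and Clca1 (4.19 FPKM) overlapped as well.

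**Figure D1:**
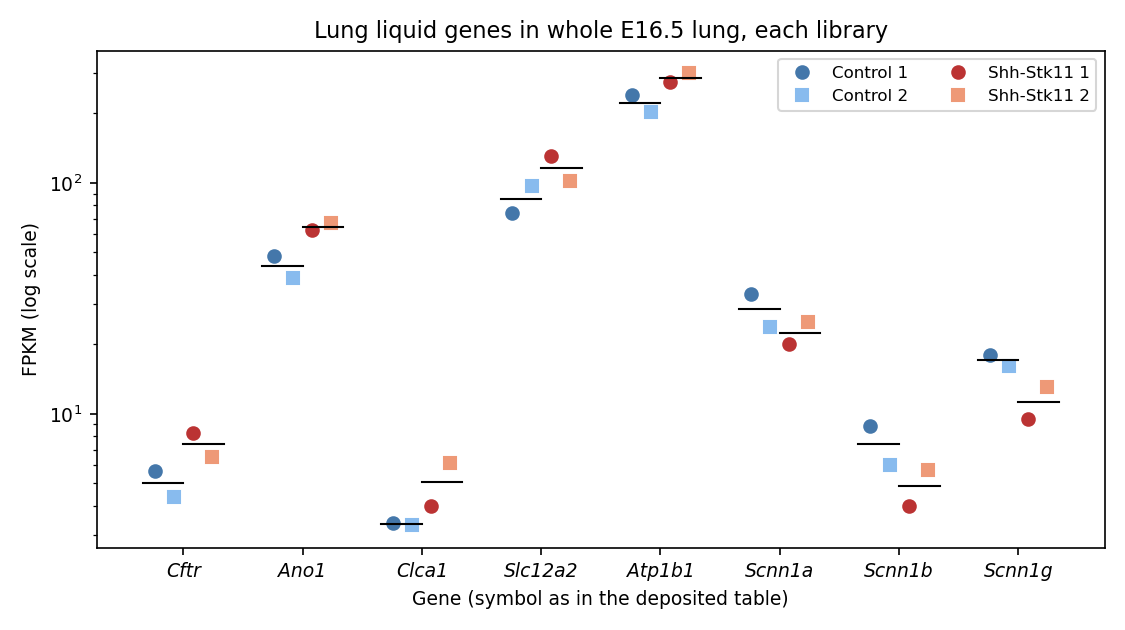
FPKM of the 8 tested members (log axis) in each of the 4 libraries, with horizontal bars at the mean of each genotype (n = 2). Only for Scnn1a do the genotypes overlap, with Control 2 at 23.7 FPKM below Shh-Stk11 2 at 24.9 FPKM.

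Among the chloride channels, Cftr encodes the cAMP-regulated chloride channel of the luminal membrane. It was at 5.63 and 4.37 FPKM in Control lungs, against 8.30 and 6.48 FPKM in Shh-Stk11 lungs. The Shh-Stk11 values were the higher ones in every pairing, with a ratio of means of 1.48 and SDs of 0.897 FPKM (Control) and 1.28 FPKM (Shh-Stk11, n = 2 each). The log2 fold change was 0.56 (SE 0.192, 95% interval 0.09 to 1.02, limma adjusted p 0.236). It was 0.27 when trends on transcript length and GC content were removed from each library, and Cftr, at 6410 bases, has one of the longest transcripts among the members. Whether the trend accounts for the difference was not tested.

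Ano1 encodes the calcium-activated chloride channel TMEM16A, which is also found in airway smooth muscle. Its level was 48.2 and 38.8 FPKM in the Controls and 62.5 and 66.9 FPKM in the Shh-Stk11 libraries. The groups did not overlap, and the means were 43.5 ± 6.63 and 64.7 ± 3.09 FPKM (SD, n = 2). With a log2 fold change of 0.58 (SE 0.146, 95% interval 0.23 to 0.93), Ano1 had the smallest adjusted p of the members in limma, at 0.113. Over the alternatives tried it lay between 0.0732 and 0.320. Removing the length and GC trend gave a log2 fold change of 0.62.

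The row named Clca1 needs care with names. RefSeq gives Clca1 as an older symbol of Clca3a1, and the table lists Clca3, Clca6 and AI747448, which RefSeq holds only as older symbols, but no Clca3a1. The row was therefore read as Clca3a1, and the gene now called Clca1, a goblet cell gene, as the row Clca3, which was listed at 0 in all 4 libraries. None of the 6 other CLCA rows passed the filter on low values. The Clca1 row was at 3.37 and 3.29 FPKM in Control lungs, against 3.98 and 6.12 FPKM in Shh-Stk11 lungs. Both Shh-Stk11 values were above the Controls but far apart from each other. The log2 fold change was 0.55 (SE 0.223, 95% interval 0.02 to 1.09, limma adjusted p 0.311), and it changed to 0.25 with Shh-Stk11 2 left out and to 0.86 with Shh-Stk11 1 left out.

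Slc12a2 encodes NKCC1, through which chloride is loaded into the cell. It was at 74.0 and 96.7 FPKM in Control lungs, against 131 and 102 FPKM in Shh-Stk11 lungs, where Control 2 and Shh-Stk11 2 were close to each other. Means were 85.4 ± 16.02 and 116 ± 20.6 FPKM (SD, n = 2), and the log2 fold change was 0.44 (SE 0.190, 95% interval -0.01 to 0.90, limma adjusted p 0.341). This became 0.26 after removal of the length and GC trend, 0.25 without Control 1 and 0.26 without Shh-Stk11 1.

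Atp1b1 encodes the beta1 subunit of the Na,K-ATPase. Its values were 241 and 203 FPKM in the Controls and 273 and 298 FPKM in Shh-Stk11 lungs, with no overlap. The means were 222 ± 26.8 and 286 ± 18.1 FPKM (SD, n = 2). The log2 fold change was 0.37 (SE 0.157, 95% interval -0.01 to 0.75, limma adjusted p 0.341), or 0.24 without Control 2.

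The sodium channel genes had the opposite direction. Scnn1a encodes the alpha subunit, which is needed for channel function. It was at 33.1 and 23.7 FPKM in Control lungs, against 20.1 and 24.9 FPKM in Shh-Stk11 lungs, and the groups overlapped. The log2 fold change was -0.32 (SE 0.195, 95% interval -0.79 to 0.15, limma adjusted p 0.503), and it moved to -0.08 without Control 1 and to -0.56 without Control 2.

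Scnn1b, for the beta subunit, was at 8.81 and 6.00 FPKM in Control lungs, against 3.998 and 5.69 FPKM in Shh-Stk11 lungs. Its groups did not overlap, but Control 2 and Shh-Stk11 2 differed by little. The log2 fold change was -0.60 (SE 0.245, 95% interval -1.19 to -0.01, limma adjusted p 0.317), and it was -0.33 without Control 1 and -0.35 without Shh-Stk11 1. Estimated read numbers were lowest for this gene and Clca1 among the members tested, with 294 to 799 reads per library for Scnn1b.

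Scnn1g, for the gamma subunit, was at 18.0 and 16.2 FPKM in Control lungs, against 9.47 and 13.1 FPKM in Shh-Stk11 lungs. No Shh-Stk11 value reached a Control value, with means of 17.1 ± 1.31 and 11.3 ± 2.58 FPKM (SD, n = 2). Its log2 fold change of -0.61 (SE 0.180, 95% interval -1.04 to -0.18) was the largest in size among the members on the log2(FPKM + 0.1) scale, though not under every alternative (with the length and GC trend removed it was -0.49, against 0.62 for Ano1). The limma adjusted p was 0.166. Without Shh-Stk11 1 the log2 fold change was -0.38. Scnn1b and Scnn1g are neighbouring protein-coding genes on chromosome 7, on the same strand, and the ratio of Scnn1b to Scnn1g was 0.489 and 0.371 in the Controls and 0.422 and 0.434 in Shh-Stk11 lungs.

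**Figure D2:**
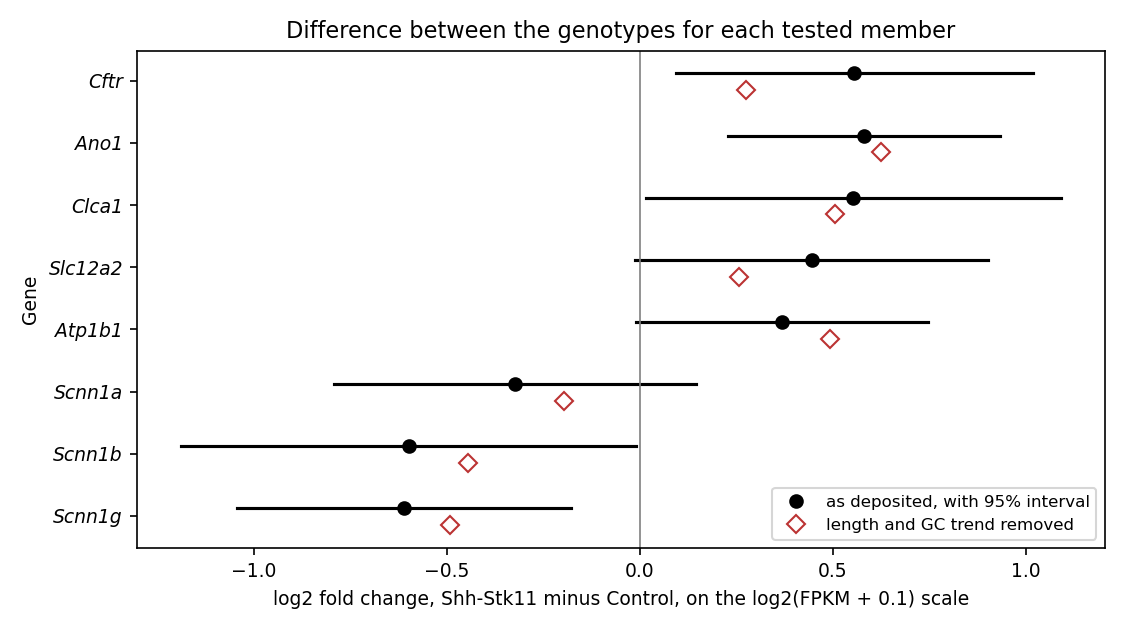
Log2 fold change of Shh-Stk11 against Control on the log2(FPKM + 0.1) scale for each tested member, with the 95% interval of the limma fit (black), and the value with the length and GC trend removed (open diamonds). The 3 ENaC subunit genes lie below 0 and the other 5 above 0 in both, with Cftr moving from 0.56 to 0.27 and Slc12a2 from 0.44 to 0.26.

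**Figure D3:**
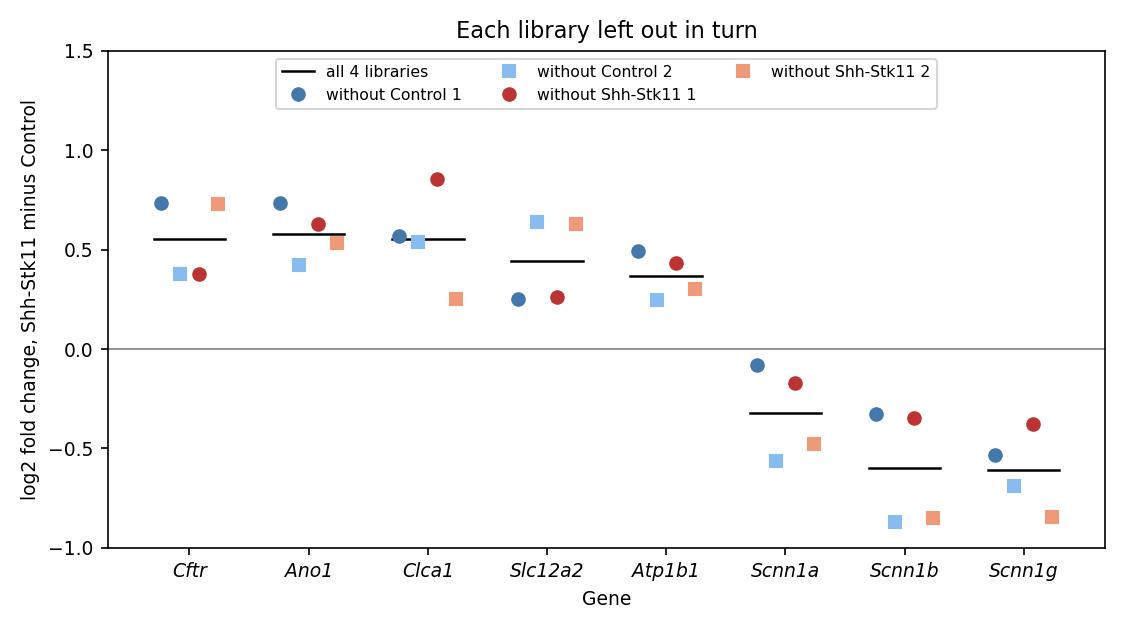
Log2 fold change of each tested member with all 4 libraries (bar) and with each library left out (points). No member changes sign, and Scnn1a comes closest to 0, at -0.08 without Control 1.

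Ratios between members within a library do not depend on the scaling between libraries. Scnn1g relative to Ano1 was 0.374 and 0.417 in the Controls and 0.152 and 0.196 in the Shh-Stk11 libraries. Scnn1a relative to Cftr was 5.87 and 5.42 in the Controls and 2.42 and 3.84 in Shh-Stk11 lungs. The groups were apart in both ratios, although Scnn1a by itself overlapped. Ano1 relative to Cftr overlapped, with 8.55 and 8.88 in the Controls and 7.53 and 10.3 in Shh-Stk11 lungs. These pairs were chosen after the values were seen, and the ratios are a description.

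**Figure D4:**
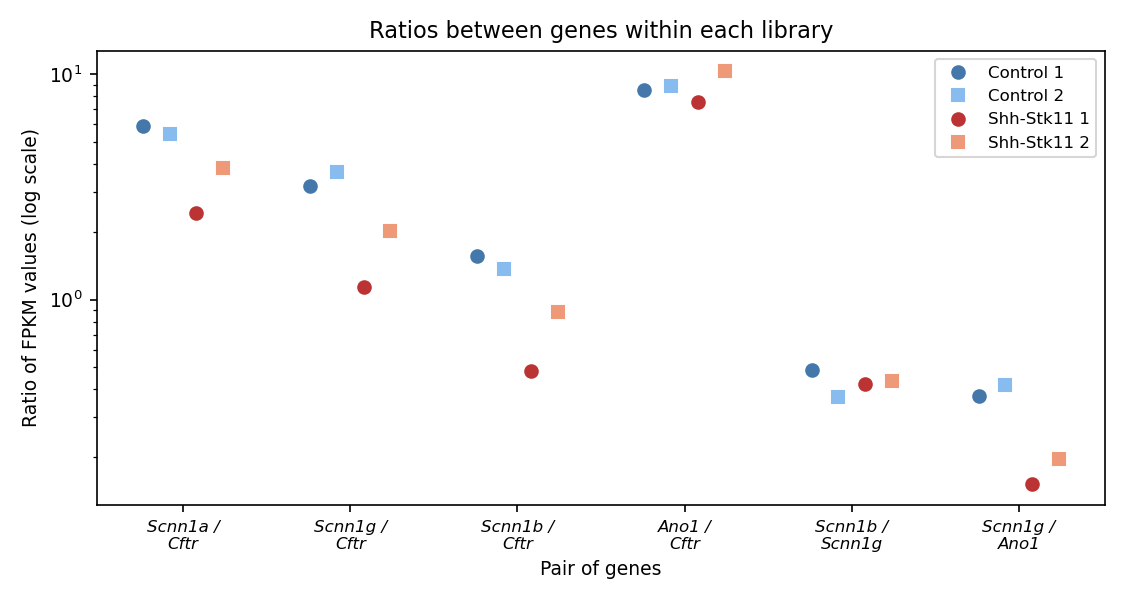
Ratio of the FPKM values of 2 genes within each library (log axis). The ratios of each ENaC subunit gene to Cftr and of Scnn1g to Ano1 lie below the Control range in each Shh-Stk11 library, whereas Ano1 to Cftr and Scnn1b to Scnn1g overlap.

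The remaining members, Foxi1 and Slc26a4, were at or near the detection limit. Foxi1 was listed at 0 in all 4 libraries, where 3 reads would be worth 0.0367 to 0.0453 FPKM. Slc26a4, which encodes the anion exchanger pendrin, was listed at 0 in 3 libraries and at 0.0110 FPKM in Control 2, or about 1 estimated read. Neither allows a comparison of the genotypes. Of 13 other genes listed for ionocytes, 5 could be tested and none passed the threshold in limma. An unadjusted p under 0.05 was found for 1 higher and 2 lower genes (backgrounds 8.04% and 7.18%). The higher gene (Atp6v0d2) and 1 of the lower genes (Atp6v1b1) averaged 0.5 FPKM or more in only 1 genotype. These counts were therefore partly set by the filter. Ascl3, an ionocyte transcription factor, was at 0.263 and 0 FPKM in Control lungs, against 0.0650 and 0.121 FPKM in Shh-Stk11 lungs. Atp6v1b1, for a proton pump subunit, had the largest log2 fold change in size among the 5 tested, at 0.946 and 1.69 FPKM in Control lungs, against 0.452 and 0.524 FPKM in Shh-Stk11 lungs, with a log2 fold change of -1.22 (limma adjusted p 0.153), or -0.62 with a pseudocount of 1. Atp6v0d2, for another proton pump subunit and picked with its values in view, had the opposite direction, at 0.274 and 0.275 FPKM against 0.564 and 0.903 FPKM (log2 fold change 1.12, limma adjusted p 0.219). Its mean over the 4 libraries was 0.504 FPKM, so it passed the filter only through the Shh-Stk11 values. Barx2 of the same list was at 0.745 and 0.499 FPKM in Control lungs, against 0.123 and 0.171 FPKM in Shh-Stk11 lungs. With a mean of 0.384 FPKM, Barx2 was not tested.

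Other genes of lung liquid handling were compared by role. Of 97 such genes in the table, 69 were tested, 2 rose past the threshold and none fell, against a background of 0.98% of all genes for rises and 1.29% for falls. Among these 69, 13 higher and 6 lower genes had an unadjusted p under 0.05, where 8.04% and 7.18% of all genes did. The median log2 fold change of the 69 was 0.08, and it was -0.02 without Control 2 and 0.12 without Control 1.

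Pde4d, which encodes a cAMP phosphodiesterase, rose to 8.61 and 7.31 FPKM in Shh-Stk11 lungs, against 3.33 and 2.17 FPKM in Control lungs. This was 2.89-fold, with a log2 fold change of 1.53 (SE 0.226, limma adjusted p 0.0289). The call was lost in 7 of 16 alternatives, with no filter (adjusted p 0.115), in both fits with a replicate block (0.0870 and 0.0555) and with any of the 4 libraries left out (0.0655 to 0.143), the last with log2 fold changes of 1.23 to 1.82. Stk39, for the kinase SPAK that activates NKCC1, rose to 19.8 and 20.5 FPKM, against 12.7 and 12.98 FPKM in Control lungs. Its log2 fold change was 0.65 (SE 0.117, limma adjusted p 0.0495), at the edge of the threshold, and the call was lost in 11 of 16 alternatives, the removal of each library among them (adjusted p 0.170 to 0.198), with log2 fold changes of 0.62 to 0.74 throughout.

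Potassium channels recycle potassium across the epithelial membrane. Of the 7 tested, 6 were higher and 1 was lower in Shh-Stk11 lungs, each without overlap of the genotypes, against a background of 19.2% of all genes for higher and 27.6% for lower ones. None passed the threshold in limma, and 5 had an unadjusted p under 0.05 (background 15.2%). Kcnj15 had the largest fitted log2 fold change, at 21.3 and 10.8 FPKM in Control lungs, against 41.2 and 43.8 FPKM in Shh-Stk11 lungs, or 1.48 (SE 0.296, limma adjusted p 0.0644, under 0.05 in 2 of 16 alternatives). Kcnk1, picked with its values in view, was at 13.9 and 17.4 FPKM in Control lungs, against 26.6 and 28.1 FPKM in Shh-Stk11 lungs, with a limma adjusted p of 0.0508 that was under 0.05 in 5 of 16 alternatives (lowest 0.0190).

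Among 13 tested anion channels and exchangers, 10 were higher and 3 lower (5737 and 8033 of all 13770 genes), and none passed the threshold in limma. Slc26a9, an epithelial anion transporter, had the largest fitted log2 fold change, at 10.9 and 7.61 FPKM in Control lungs, against 16.3 and 14.9 FPKM in Shh-Stk11 lungs, or 0.77 (SE 0.188, limma adjusted p 0.106). The unadjusted p was under 0.05 for 4 of them, all higher (background 8.04%).

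Aquaporins, the water channels, differed among themselves. Aqp5, a gene of alveolar type I cells and glands, was at 28.9 and 13.5 FPKM in Control lungs, against 41.1 and 64.8 FPKM in Shh-Stk11 lungs, with a log2 fold change of 1.38 (SE 0.370, limma adjusted p 0.131), or 0.84 without Control 2. Aqp4, also picked with its values in view, had the opposite direction, at 2.25 and 2.44 FPKM in Control lungs, against 1.31 and 0.906 FPKM in Shh-Stk11 lungs, with a log2 fold change of -1.04 (limma adjusted p 0.0953), or -0.67 with a pseudocount of 1. None of the 5 tested aquaporins passed the threshold in limma, and 2 had an unadjusted p under 0.05 (background 15.2%).

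Fxyd4 encodes a small protein that modulates the Na,K-ATPase. It was at 3.64 and 2.75 FPKM in Control lungs, against 6.47 and 11.6 FPKM in Shh-Stk11 lungs, with a log2 fold change of 1.43 (SE 0.289, limma adjusted p 0.0671, under 0.05 in 2 of 16 alternatives). In its list of pump subunits and FXYD proteins, 2 of 10 tested genes were higher and 8 were lower, where 8033 of all 13770 genes were lower, and none passed in limma, while 3 had an unadjusted p under 0.05 (background 15.2%). The 12 tested genes listed as regulators of ENaC include Cap1, which shares only a name with the channel-activating protease encoded by Prss8. Their log2 fold changes lay between -0.40 (Usp2, which encodes a deubiquitinase) and 0.34 (Usp2 was at -0.26 without Control 1, -0.21 without Shh-Stk11 2 and -0.27 with a pseudocount of 1), with no call and none at an unadjusted p under 0.05 in limma.

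**Figure D5:**
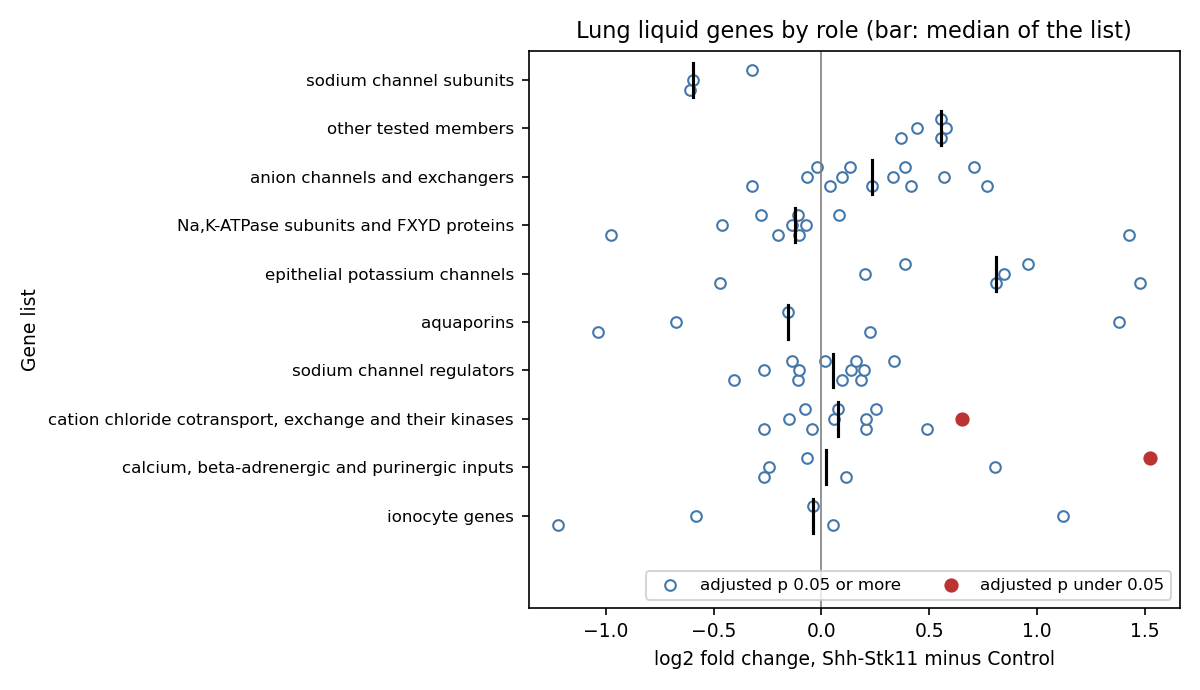
Log2 fold change of each tested gene by list, with a bar at the list's median. Filled points are the 2 genes past the threshold, Stk39 at 0.65 and Pde4d at 1.53. The ENaC subunit genes have a median of -0.60, the other tested members 0.55 and the potassium channels 0.81.

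The 3 genes with a pattern most like that of Scnn1g, by the root mean square difference of centred log2 values over the 4 libraries, were Pllp (0.0268), Upk1b (0.0313) and Fam105a (0.0352). Upk1b was at 12.5 and 10.8 FPKM in Control lungs, against 6.32 and 9.18 FPKM in Shh-Stk11 lungs. With 4 libraries this likeness is a description.

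Marker levels of several cell types differed alongside those of the members. General epithelial markers were higher in 11 of 12 cases, where 5737 of all 13770 genes were higher. Their summed levels were 1124 to 1169 FPKM in the Controls and 1230 to 1400.0 FPKM in Shh-Stk11 lungs. The genotypes overlapped for 4 of the 12. In limma, 0 of 12 passed the threshold, and 3, all higher, had an unadjusted p under 0.05 (background 8.04%). Relative to Epcam, an epithelial surface gene, Ano1 and Slc12a2 were higher and Scnn1b and Scnn1g lower without overlap, while Cftr, Atp1b1, Clca1 and Scnn1a overlapped. The outcome depended on the epithelial gene chosen, since relative to Cdh1, the gene of E-cadherin, all 3 ENaC subunit genes were lower without overlap, and the 5 other members had log2 ratios of the group means from -0.12 to 0.11. Cdh1 itself was at 130 and 105 FPKM in Control lungs, against 165 and 162 FPKM in Shh-Stk11 lungs. Slc12a2 relative to Cdh1 overlapped, with 0.570 and 0.920 in the Controls and 0.792 and 0.625 with Shh-Stk11, as did Cftr and Clca1. Ano1 relative to Cdh1 was 0.371 and 0.369 in the Controls and 0.379 and 0.412 with Shh-Stk11, and Atp1b1 relative to Cdh1 was lower with Shh-Stk11, at 1.65 and 1.84 against 1.85 and 1.93. Scnn1a relative to Cdh1 was 0.255 and 0.225 in the Controls and 0.122 and 0.153 with Shh-Stk11. In limma, 7 of 8 multiciliated markers fell past the threshold (background 1.29%). Their summed level was 98.2 to 105 FPKM in the Controls and 31.0 to 34.2 FPKM in Shh-Stk11 lungs. That of 10 distal alveolar markers was 17768 to 20099 and 9767 to 14491 FPKM, and that of 10 secretory markers 854 to 855 and 669 to 729 FPKM. These sums are carried by the most abundant genes, and single markers went both ways, with 4 higher and 6 lower of 10 distal alveolar markers tested (log2 fold changes from -1.18 to 2.04) and 3 higher and 3 lower of 6 secretory markers tested (-1.49 to 1.35). Past the threshold in limma, 1 distal alveolar and 2 secretory markers fell and none rose (backgrounds 1.29% for falls and 0.98% for rises). Outside the epithelium, all 9 endothelial, all 9 mesenchymal and all 7 tested red blood cell markers had lower values. Over all 13770 genes tested, 8033 were lower. The summed levels were apart between the genotypes. They were 598 to 703 against 487 to 517 FPKM for endothelial markers and 1328 to 1414 against 1207 to 1210 FPKM for mesenchymal markers. Red blood cell markers summed to 3724 to 3868 against 2497 to 2770 FPKM. Taken singly, 3 endothelial, 6 mesenchymal and 2 red blood cell markers overlapped, while 46.8% of all genes did not overlap. In limma, 1 red blood cell marker fell past the threshold, and no endothelial or mesenchymal marker did (background 1.29%). Immune (239 to 453 FPKM over the 4 libraries) and heart muscle markers (53.4 to 243 FPKM) overlapped between the genotypes, and markers of kidney tubule and salivary gland summed to 0.464 FPKM at most. No marker in these lists was at 0 in all libraries. Their part in the differences of the members was not tested.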

How the data were processed

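Total RNA of whole E16.5 lungs was sequenced as single-end reads, with 2 Control and 2 Shh-Stk11 libraries. The authors deposited 1 table of FPKM values for the genes of each library. The submitters' processing notes name TopHat2 2.0.13 and Cufflinks 2.2.1 and the builds GRCm38 and mm9, without their roles. The annotation and any scaling between libraries are not given in the sources used here. The study calls the replicates biologically independent, without saying whether a library came from a single embryo or from a pool. The result for 1 gene is not reported here.

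Members, lists and tests were chosen with earlier results of these data known. R 4.3.3 with limma 3.58.1 was run on log2(FPKM + 0.1) for 13770 genes, those averaging 0.5 FPKM or more, with genotype as the only term, eBayes with a trend, two-sided tests and Benjamini-Hochberg adjustment over all genes (threshold 0.05). The pseudocount understates changes of low genes. The fit had 4.48 prior and 2 residual degrees of freedom, and was tested on simulated data. The text names all members, called genes of the other lists, the largest change in lists without a call, and the 3 genes most like the member with the largest fitted log2 fold change in size.

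Depth was estimated from 1717 genes between 0.001 and 0.3 FPKM, of which 76.9% were whole multiples (tolerance 0.03) of a step shared by the libraries. Transcript length and GC content came from the longest GENCODE M21 transcript, after direct (20240) or synonym (1918) matches of symbols, and 398 symbols had no match. Taking 220 bases off the length, 197 genes with 1 transcript gave the read numbers. Alternatives were 2 pseudocounts, 3 filters, 2 scalings, 2 variance settings, replicate number as a block, removal of the length and GC trend, both together, and each library left out.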

Additional observations from a re-analysis of the deposited data

How the results depend on the processing

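For the tested members, no call was made under any of the 17 alternatives. All 127 values of single members under the alternatives other than the crossed pairing kept their direction, and the smallest adjusted p among them was 0.0732 (Ano1, robust moderation). The median of the members ranged from 0.27 to 0.49. Over all genes, 313 calls became 200 with genes of at least 5 FPKM, 61 with no filter, 587 with robust moderation, 186 with the length and GC trend removed, and 38 to 191 with 1 library left out, lowest without Control 2. Of the other lung liquid genes, 2 calls became 1 with a pseudocount of 1, with genes of at least 0.1 FPKM, with quantile normalization and without the variance trend, 4 with genes of at least 5 FPKM and with robust moderation, 0 with no filter, and 0 to 1 with 1 library left out, where the call was Kcnj15 without Control 1 (adjusted p 0.0236) and Fxyd4 without Shh-Stk11 1 (0.0228) and never Pde4d or Stk39. In the latter fits the lone library was assumed to vary like the others. The cause of these shifts was not tested beyond the fewer libraries or other gene numbers themselves.

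Replicate numbers are shared by the genotypes, but the labels do not say that they mark a litter or batch. Same-numbered libraries deviated from their group means with a correlation of -0.11 across genes. With the replicate block, 13 genes were called over all genes and 0 of the other lung liquid genes, and with the block and the length and GC trend removed together 54 and 0. A crossed pairing, added after seeing the data, gave 675 and 9 calls, and none among the members.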
